A study of Mus musculus with 21 samples.

Results

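Transcripts of the collagen hydroxylases and of the collagen chaperone were followed in mouse lung fibroblasts over 2 models of lung fibrosis. The 8 genes were the prolyl 4-hydroxylase alpha subunits P4ha1, P4ha2 and P4ha3, their partner P4hb, the lysyl hydroxylases Plod1, Plod2 and Plod3, and the chaperone Serpinh1. They were chosen by symbol, with earlier results of these data known, from 23204 gene symbols, and all 8 were listed in every library and tested. The cells were live fibroblasts, negative for CD45, CD31, EpCAM, CD146 and Ter119 and positive for green fluorescent protein, sorted from lungs of female C57BL/6 mice that carry a Col1a2-GFP transgene. All 7 groups had this genotype and 3 libraries each: SiO2 at day 7, 14 and 63 (silica at 400 mg/kg), BLM at day 7, 14 and 63 (bleomycin at 2 mg/kg), and untreated mice. Both agents were given as 1 dose in 50 µL of saline by oropharyngeal aspiration. None of the 7 groups received saline alone, and the labels give no age. The untreated libraries are entered as day 0, without an untreated group for day 7, 14 or 63. In comparisons with untreated mice the agent, the saline aspiration and the time passed therefore cannot be told apart. The series describes the bleomycin model as reversible and the silica model as progressive. Silica (SiO2) lungs and bleomycin (BLM) lungs below stand for the cells sorted from those lungs. The GFP gate selects cells by activity of the promoter of Col1a2, itself a substrate gene of these enzymes, so fibroblasts with little Col1a2 activity are not represented.

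Collagen chains are modified in the endoplasmic reticulum before they fold. Prolyl 4-hydroxylase, an assembly of catalytic alpha subunits and the disulfide isomerase P4hb, hydroxylates prolines, which gives the collagen helix its thermal stability. Lysyl hydroxylases modify lysines that later carry sugars or take part in cross-links: Plod1 acts mainly on helical lysines, Plod2 on the telopeptide lysines of the stable cross-links known from scar tissue, and Plod3 also transfers sugars to hydroxylysine. These enzymes need oxygen, iron, 2-oxoglutarate and ascorbate. Serpinh1 encodes HSP47, a chaperone that binds the folded procollagen helix and accompanies it out of the reticulum.

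In the mm10 build (GENCODE vM21) P4ha1 lies at chr10:59323296-59373304, P4ha2 at chr11:54100095-54131665, P4ha3 at chr7:100285520-100319699 and Plod2 at chr9:92542223-92608428, all on the plus strand. Plod3 lies on the plus strand at chr5:136987019-136996648. On the minus strand lie P4hb at chr11:120560298-120573253, Plod1 at chr4:147909753-147936767 and Serpinh1 at chr7:99345376-99353239. All are protein-coding. Plod3 shares 1003 bases at its start with Znhit1 on the opposite strand, 8627 bases from the end of Plod3 where 3′ tags arise, and Znhit1 itself held 0.936 to 4.23 CPM. Plod2 shares 647 bases with Gm38391, 65559 bases from its 3′ end. The strand setting of the counting is not given in the sources used here.

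The 250 bases before the annotated start are shown for P4ha1, the alpha subunit that moved least, and for P4ha3 and P4hb, which moved together over the libraries. The sequences are from RefSeq (GRCm38.p6, the sequence of mm10), read 5′ to 3′ on the strand of the gene, and capitals mark the letters ACGTG or their reverse complement CACGT, the core of the element that hypoxia-inducible factors bind.
P4ha1, chr10:59323046-59323295, plus strand: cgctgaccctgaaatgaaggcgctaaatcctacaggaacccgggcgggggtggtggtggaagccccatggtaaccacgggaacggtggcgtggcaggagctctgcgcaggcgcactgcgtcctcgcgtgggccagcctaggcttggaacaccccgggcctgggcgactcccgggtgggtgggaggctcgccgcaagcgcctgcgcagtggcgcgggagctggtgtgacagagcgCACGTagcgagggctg
P4ha3, chr7:100285270-100285519, plus strand: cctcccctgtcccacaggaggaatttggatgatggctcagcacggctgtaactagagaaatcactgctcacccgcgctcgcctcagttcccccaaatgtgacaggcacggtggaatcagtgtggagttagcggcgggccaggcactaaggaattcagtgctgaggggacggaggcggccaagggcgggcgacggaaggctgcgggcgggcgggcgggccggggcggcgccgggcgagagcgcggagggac
P4hb, chr11:120573254-120573503, minus strand: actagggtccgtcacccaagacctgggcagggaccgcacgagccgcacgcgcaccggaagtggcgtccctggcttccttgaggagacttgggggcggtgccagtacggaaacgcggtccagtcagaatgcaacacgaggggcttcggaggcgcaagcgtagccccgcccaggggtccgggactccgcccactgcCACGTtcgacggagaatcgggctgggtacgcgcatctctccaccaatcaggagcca

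Windows of this kind were found for 7 of the 8 genes, all but Plod2. They end at RefSeq's start of the gene, which for P4ha2 lies inside the GENCODE span given above and for Plod1 a few bases before it. The letters ACGTG on either strand stood in 5 of the 7: P4ha1 (16 bases before the start), P4ha2 (78), P4hb (56), Plod3 (54) and Serpinh1 (171). Among 32851 RefSeq mouse windows of the same length, 16.6% held them. P4ha3 and Plod1 had no such match. The GC box GGGCGG, searched on both strands, stood in 6 of the 7 windows and in 32.7% of all windows; P4ha3 held 5 copies, all within 69 bases of the start. The CCAAT box stood in P4hb and Plod3, 2 of the 7, against 33.8% of all windows. The 7 windows were 55.6% to 70.0% G and C, and the comparison windows were not matched for base composition. Whether the shares differ beyond base composition was not tested. A match describes the letters only, and binding was not measured.

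Total counts per library ran from 2080636 to 4477283 with a median of 3774431, and levels are given as CPM, tag counts scaled to library size with TMM factors. Tags come from the 3′ end of transcripts, so CPM were not divided by gene length. Fold changes are log2 values ± SE from edgeR's quasi-likelihood model of all 21 libraries (n = 3 libraries per group), with p-values adjusted by the Benjamini-Hochberg method over the 11669 genes tested; rose, fell, higher and lower mark an adjusted p under 0.05. The 6 comparisons with untreated mice share the same 3 untreated libraries. Whether the libraries of a group are from different mice is not in the labels, so p-values cover only the spread between these libraries, which may be technical. In bulk RNA, a change in the number of cells that express a gene and a change in RNA per cell cannot be told apart.

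Most of the genes rose early in both models. The models differed in when the rise was largest and in how much of it was left at day 63. At SiO2 day 7 all 8 genes rose against untreated mice, where 23.4% of all tested genes rose. Their median log2 fold change was 1.01 (all genes, 0.04). At SiO2 day 14 there were 4 that rose (P4ha3, P4hb, Plod2 and Serpinh1; 13.6% of all genes), with a median of 0.57 (all genes, 0.03). At SiO2 day 63 there were again 4 (P4ha3, P4hb, Plod3 and Serpinh1; 15.3% of all genes), with a median of 0.51 (all genes, 0.02). With upper quartile scaling the share of calls at SiO2 day 14 that were higher was 44.8%, against 56.4% with TMM.

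In bleomycin lungs 5 of the 8 rose at day 7 (P4ha3, P4hb, Plod1, Plod2 and Serpinh1; 16.7% of all genes) and 6 at day 14, the same 5 with P4ha2 (20.7% of all genes). At day 63 the 3 that rose were P4ha3, P4hb and Plod1 (6.02% of all genes). The Plod1 call at day 63 was lost in all 13 alternative fits, and limma-voom and DESeq2 each called 2 genes there. The medians over the 8 genes were 0.65 at day 7, 0.90 at day 14 and 0.18 at day 63, against 0.02, 0.03 and 0.01 for all genes. Against untreated mice 0 of the 8 fell, while 20.6%, 10.5% and 12.5% of all genes fell at SiO2 day 7, 14 and 63, and 14.9%, 18.5% and 5.48% at BLM day 7, 14 and 63. P4ha1 fell at BLM day 14 when replicate 2 of that group was left out (log2 fold change -0.41, adjusted p = 0.0119). The number that rose at BLM day 7 was 3 without untreated replicate 1, when Plod1 and Plod2 no longer passed. Treated and untreated libraries did not overlap for 8 of the 8 genes at SiO2 day 7, 5 at day 14 and 4 at day 63, where the share of all genes was 51.5%, 36.7% and 40.2%. For bleomycin it was 5 at day 7, 7 at day 14 and 3 at day 63, where the share was 42.6%, 48.5% and 28.1%.

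**Figure D1:**
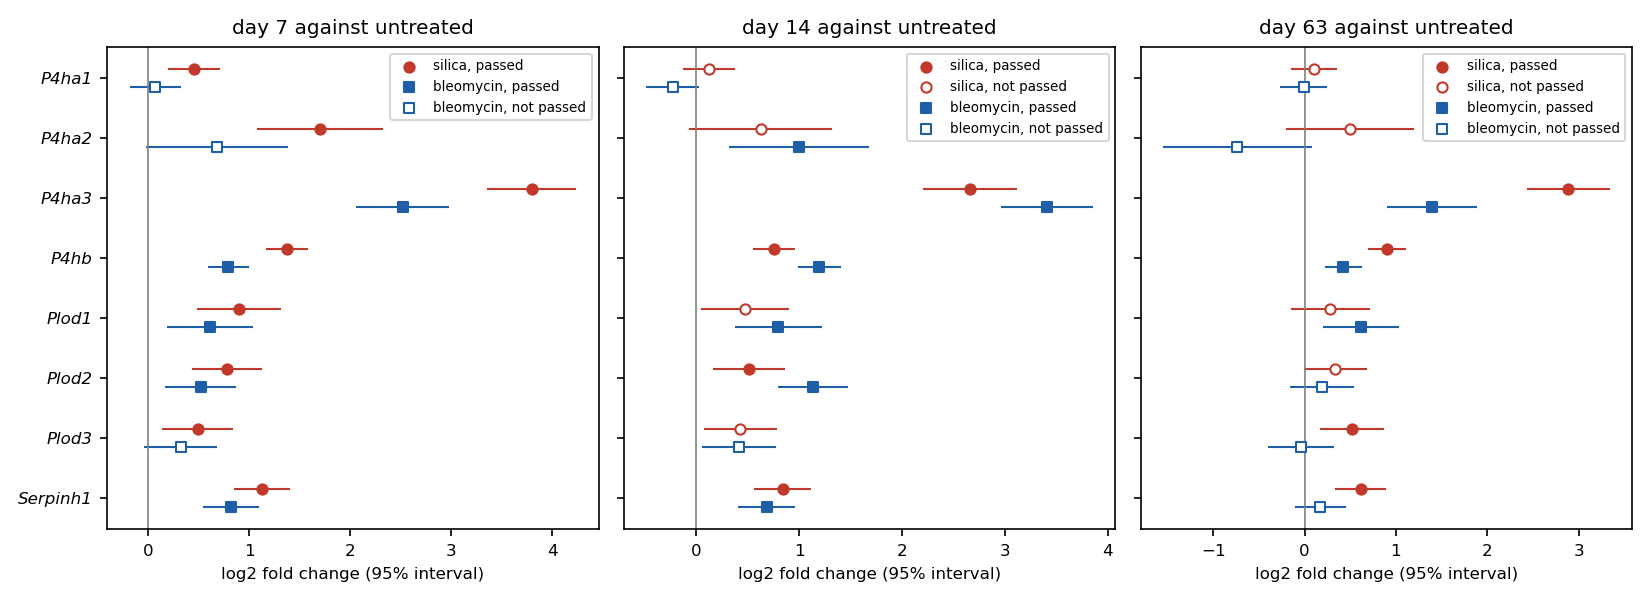
Log2 fold change against untreated mice (x axes) of the 8 genes (rows) at day 7, 14 and 63 (panels, left to right) in silica (red circles, above) and bleomycin (blue squares, below), with 95% intervals from the edgeR model; filled symbols passed an adjusted p under 0.05. P4ha3 stands to the right of the other genes in every panel, from 1.39 at BLM day 63 to 3.79 at SiO2 day 7.

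P4ha3, which held few of the alpha subunit tags in untreated libraries, showed the largest rise of the 8 genes in all 6 comparisons. Untreated libraries held 11.9, 10.0 and 13.6 CPM of P4ha3. Silica libraries held 159, 170.0 and 155 CPM at day 7, 78.7, 90.9 and 51.5 at day 14 and 85.9, 76.4 and 95.7 at day 63. Bleomycin libraries held 48.2, 75.3 and 76.4 CPM at day 7, 127, 104 and 140.1 at day 14 and 21.7, 34.7 and 35.4 at day 63. Every treated library of both models lay above the highest untreated library, 13.6 CPM, and the lowest treated values were those of BLM day 63. The gene rose 13.9-fold at SiO2 day 7 (log2 fold change 3.79 ± 0.22, adjusted p = 1.09e-14). It rose 10.6-fold at BLM day 14 (3.41 ± 0.22, adjusted p = 1.65e-13). At day 63 it was still 7.40-fold higher in SiO2 lungs (2.89 ± 0.22, adjusted p = 1.69e-11). In BLM lungs it was 2.63-fold higher (1.39 ± 0.24, adjusted p = 0.000161). Between these came 2.66 ± 0.22, adjusted p = 2.12e-10 at SiO2 day 14 and 2.52 ± 0.23, adjusted p = 6.23e-10 at BLM day 7. Each of these calls held in all alternative fits.

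Over time P4ha3 fell in silica lungs between day 7 and day 14 (-1.13 ± 0.17, adjusted p = 8.56e-06), while over the same days it rose in bleomycin lungs (0.89 ± 0.18, adjusted p = 0.000815). From day 14 to day 63 it fell in bleomycin lungs (-2.02 ± 0.19, adjusted p = 8.34e-10). In silica lungs the change did not pass (0.23 ± 0.17, adjusted p = 0.572, 95% interval -0.13 to 0.59). By group mean the order was SiO2 day 7, BLM day 14, SiO2 day 63, SiO2 day 14, BLM day 7, BLM day 63 and untreated. Libraries of neighbours in this order overlapped for SiO2 day 63 with SiO2 day 14 and for SiO2 day 14 with BLM day 7, and did not overlap elsewhere.

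**Figure D2:**
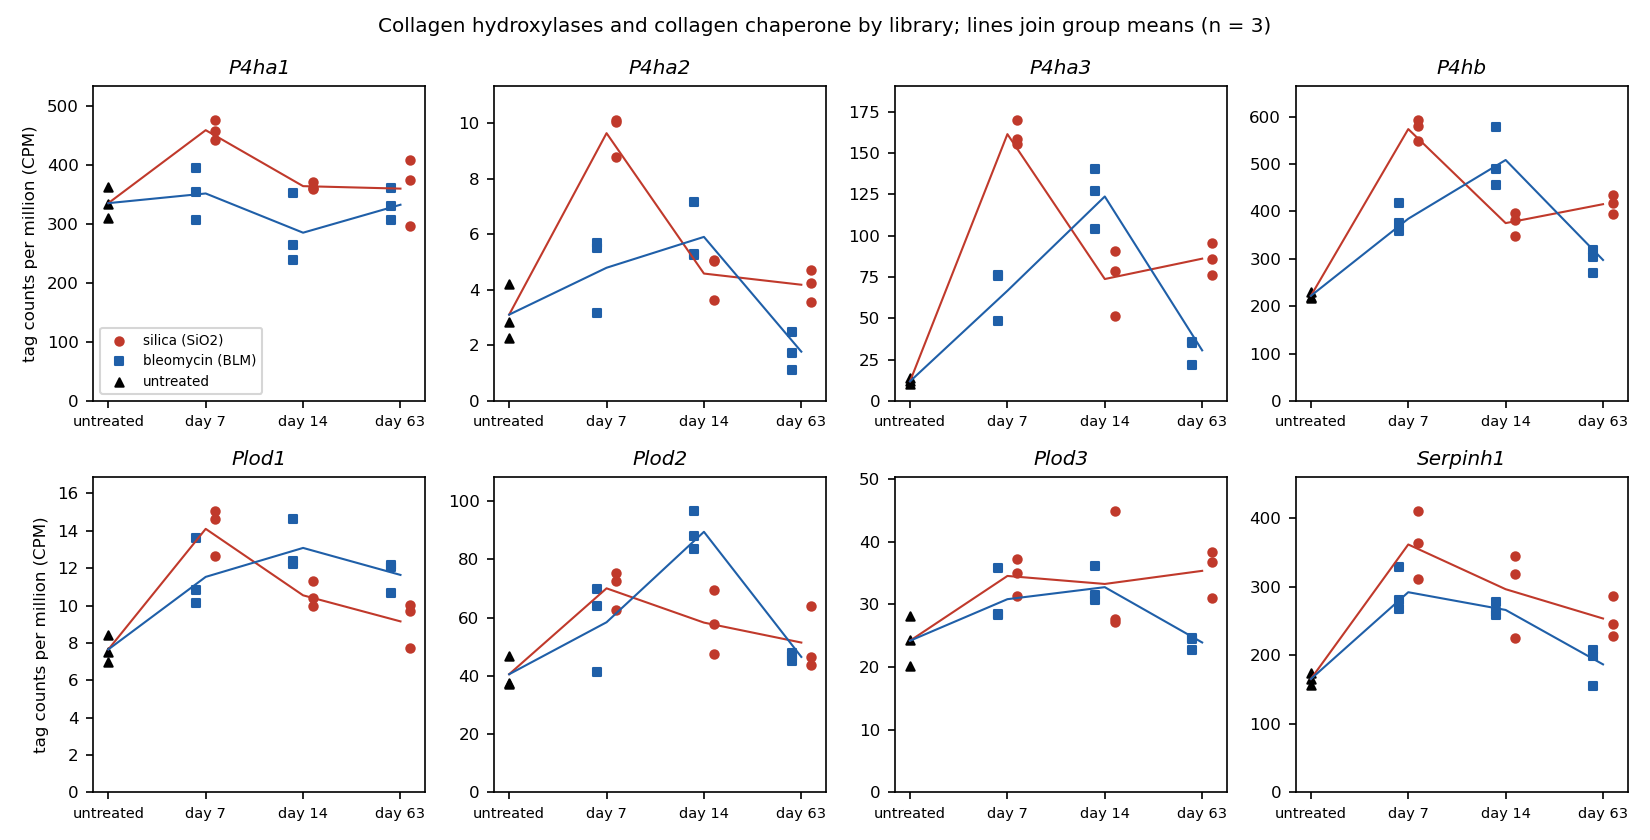
CPM of each gene (y axes, from 0) in untreated mice and at day 7, 14 and 63 (x axes); each symbol is a library, red circles silica, blue squares bleomycin and black triangles untreated, and lines join group means of 3 libraries. P4ha3 reaches 155 to 170 CPM at SiO2 day 7 against 10.0 to 13.6 CPM in untreated mice, and P4ha1 stays between 239 and 477 CPM throughout.

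P4ha1, the alpha subunit with most tags, moved little. The untreated libraries had 309.5, 364 and 333 CPM of P4ha1. Those of the silica course had 477, 458 and 443 CPM at day 7, 372, 361 and 360.1 at day 14 and 297, 375 and 408 at day 63. Those of the bleomycin course had 395, 354 and 307 CPM at day 7, 239, 353 and 264 at day 14 and 361, 306 and 331 at day 63. The libraries lay above all untreated ones at SiO2 day 7 alone, and there the gene rose 1.37-fold (0.45 ± 0.12, adjusted p = 0.0036). The other 5 comparisons with untreated mice ran from -0.23 ± 0.12 at BLM day 14 to 0.12 ± 0.12 at SiO2 day 14, and their 95% intervals reached at most 0.37 upward and -0.49 downward. It fell from day 7 to day 14 in silica lungs (-0.33 ± 0.12, adjusted p = 0.0485), a call that was lost without SiO2 day 7 replicate 1, 2 or 3 (adjusted p = 0.118, 0.0932 and 0.0741) and without SiO2 day 14 replicate 1, 2 or 3 (adjusted p = 0.0833, 0.122 and 0.114). BLM day 14 replicate 2 held 353 CPM beside 239 and 264 in the other two. Without it P4ha1 was lower at BLM day 14 than at day 7 (-0.48, adjusted p = 0.0151) and higher at BLM day 63 than at day 14 (0.40, adjusted p = 0.0170).

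P4ha2 was the rarest of the 8, with 5 to 40 counts per library, and 17 of 21 libraries lay above the 2.65 CPM of the low-count filter. In untreated mice the libraries gave 2.85, 2.26 and 4.21 CPM of P4ha2. After silica they gave 10.0, 8.77 and 10.1 CPM at day 7, 5.05, 5.06 and 3.64 at day 14 and 4.73, 4.26 and 3.56 at day 63. After bleomycin they gave 5.51, 3.17 and 5.70 CPM at day 7, 5.30, 7.17 and 5.25 at day 14 and 2.49, 1.72 and 1.11 at day 63. The SiO2 day 7 libraries stood above all others in the study, and the BLM day 63 libraries were the lowest as a group. P4ha2 rose 3.25-fold at SiO2 day 7 (1.70 ± 0.31, adjusted p = 3.41e-05). It rose 2.00-fold at BLM day 14 (1.00 ± 0.33, adjusted p = 0.0175). The second call was lost with DESeq2 (adjusted p = 0.0503), without untreated replicate 1 or 2 (adjusted p = 0.0587 and 0.101) and without BLM day 14 replicate 2 (adjusted p = 0.0862). It then fell to day 14 in silica lungs (-1.08 ± 0.28, adjusted p = 0.00406) and to day 63 in bleomycin lungs (-1.73 ± 0.35, adjusted p = 0.000266). At day 63 neither model differed from untreated mice past the test (0.49 ± 0.34, adjusted p = 0.311 in SiO2 lungs and -0.73 ± 0.40, adjusted p = 0.264 in BLM lungs).

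The P4ha3 share of the alpha subunit tags was larger in every treated library than in any untreated one; no test was run on shares. In untreated libraries P4ha1 made up 95.7 ± 0.924% (SD, n = 3) of the summed P4ha1, P4ha2 and P4ha3 counts, P4ha3 3.40 ± 0.641% and P4ha2 0.893 ± 0.300%. The P4ha3 share in silica lungs was 25.6 ± 1.07% at day 7, 16.5 ± 3.80% at day 14 and 19.3 ± 2.73% at day 63. In bleomycin lungs it was 15.9 ± 4.64% at day 7, 30.3 ± 6.80% at day 14 and 8.46 ± 2.47% at day 63. The lowest treated share, 5.62% in a BLM day 63 library, lay above the highest untreated one, 3.87%. The summed level of the subunits was 630.3 ± 19.6 CPM at SiO2 day 7 and 415 ± 46.5 CPM at BLM day 14, against 350.5 ± 25.9 CPM in untreated mice. These are shares of tags, not of protein, and how well each gene's tag is captured was not measured, and CPM of different genes are compared here only as tags.

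**Figure D3:**
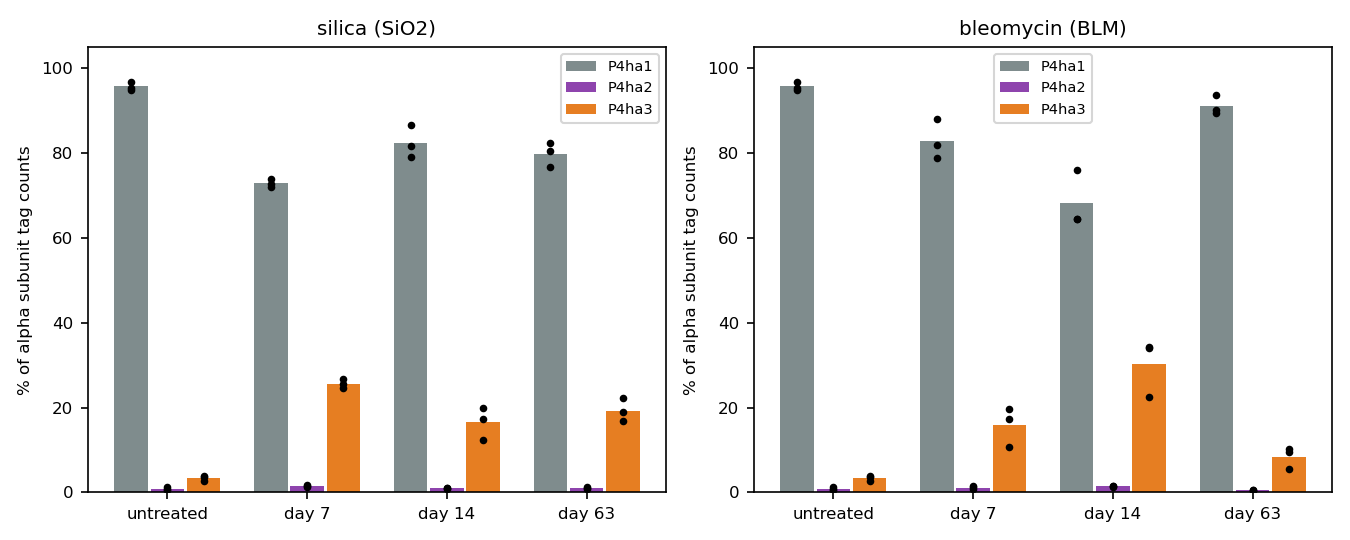
Share of P4ha1 (grey), P4ha2 (purple) and P4ha3 (orange) in the summed alpha subunit tag counts (y axis, percent) in untreated mice and at day 7, 14 and 63 in silica (left) and bleomycin (right); bars are means of 3 libraries, points the libraries, and the untreated bars are the same in both panels. The P4ha3 share is 25.6% at SiO2 day 7 and 30.3% at BLM day 14, against 3.40% in untreated mice.

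P4hb, the disulfide isomerase that holds the alpha subunits in solution, rose in all 6 comparisons with untreated mice. Untreated libraries held 216, 229 and 220.1 CPM of P4hb. Silica libraries held 593, 548 and 579.7 CPM at day 7, 396, 381 and 349 at day 14 and 417, 394 and 434 at day 63. Bleomycin libraries held 359, 419 and 376 CPM at day 7, 579, 490.1 and 457 at day 14 and 303, 271 and 318 at day 63. All 18 treated libraries lay above the highest untreated value, 229 CPM. The rise was 2.59-fold at SiO2 day 7 (1.37 ± 0.10, adjusted p = 2.34e-12) and 2.29-fold at BLM day 14 (1.20 ± 0.10, adjusted p = 6.85e-11). It was 1.87-fold at SiO2 day 63 (0.90 ± 0.10, adjusted p = 2.77e-08) and 1.34-fold at BLM day 63 (0.42 ± 0.10, adjusted p = 0.00466). P4hb fell from day 7 to day 14 in silica lungs (-0.61 ± 0.10, adjusted p = 2.02e-05) and from day 14 to day 63 in bleomycin lungs (-0.77 ± 0.10, adjusted p = 3.55e-07). The gene was higher at BLM day 14 than at day 7 (0.40 ± 0.10, adjusted p = 0.00678), and this call was lost without BLM day 7 replicate 1 (adjusted p = 0.056) and without BLM day 14 replicate 1 (adjusted p = 0.0789).

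Among the lysyl hydroxylases Plod2, which acts on telopeptide lysines, had the largest rise at BLM day 14. The untreated libraries had 37.3, 47.0 and 37.5 CPM of Plod2. Those of the silica course had 62.5, 72.5 and 75.2 CPM at day 7, 57.9, 69.6 and 47.4 at day 14 and 43.6, 46.6 and 64.1 at day 63. Those of the bleomycin course had 41.5, 69.7 and 64.0 CPM at day 7, 83.7, 96.5 and 88.2 at day 14 and 47.8, 45.1 and 46.7 at day 63. The BLM day 14 libraries stood above every other library in the study, and those of SiO2 day 7 above all untreated ones. Plod2 rose 2.19-fold at BLM day 14 (1.13 ± 0.17, adjusted p = 2.44e-06). It rose 1.71-fold at SiO2 day 7 (0.78 ± 0.17, adjusted p = 0.000343). Its rises at BLM day 7 (0.52 ± 0.17, adjusted p = 0.0202) and SiO2 day 14 (0.51 ± 0.17, adjusted p = 0.0271) were smaller. They were lost in 4 and 5 alternative fits. The first was lost without untreated replicate 1 or 3 (adjusted p = 0.09 and 0.0641) and without BLM day 7 replicate 2 or 3 (adjusted p = 0.159 and 0.0797). The other was lost with upper quartile scaling (adjusted p = 0.062), without untreated replicate 1 or 3 (adjusted p = 0.13 and 0.0888) and without SiO2 day 14 replicate 1 or 2 (adjusted p = 0.0584 and 0.21). By day 63 neither model passed the test (0.34 ± 0.17, adjusted p = 0.147 in SiO2 lungs and 0.19 ± 0.17, adjusted p = 0.561 in BLM lungs). In bleomycin lungs the gene had fallen from day 14 (-0.94 ± 0.16, adjusted p = 3.4e-05). Its rise from BLM day 7 to day 14 (0.61 ± 0.16, adjusted p = 0.0116) was lost without BLM day 7 replicate 1 (adjusted p = 0.131) and without BLM day 14 replicate 2 (adjusted p = 0.0566).

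Plod1 hydroxylates mainly helical lysines. Its levels were 6.99 to 8.43 CPM in untreated mice, 12.7 to 15.0 at SiO2 day 7, 9.96 to 11.3 at day 14 and 7.72 to 10.0 at day 63. In bleomycin lungs they were 10.1 to 13.6 CPM at day 7, 12.3 to 14.6 at day 14 and 10.7 to 12.2 at day 63. SiO2 day 63 was the only treated group whose libraries overlapped the untreated ones. The gene rose at SiO2 day 7 (0.90 ± 0.20, adjusted p = 0.000514), BLM day 14 (0.80 ± 0.21, adjusted p = 0.00266) and BLM day 7 (0.61 ± 0.21, adjusted p = 0.025). The last of these was lost with no filter on low counts (adjusted p = 0.0894), with the compared groups alone in the fit (adjusted p = 0.0732), with DESeq2 (adjusted p = 0.0826), without untreated replicate 1 or 2 (adjusted p = 0.0951 and 0.0603) and without BLM day 7 replicate 1 (adjusted p = 0.133). The call at BLM day 63 (0.62 ± 0.21, adjusted p = 0.0474) was lost in all 13 alternative fits, with adjusted p between 0.0526 and 0.182.

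Plod3, which also glycosylates collagen, had the smallest rise of the family at SiO2 day 7. In untreated mice the libraries gave 24.3, 28.1 and 20.1 CPM of Plod3. After silica they gave 31.4, 35.1 and 37.2 CPM at day 7, 44.9, 27.7 and 27.2 at day 14 and 31.0, 38.3 and 36.7 at day 63. After bleomycin they gave 28.4, 28.3 and 35.8 CPM at day 7, 31.4, 36.2 and 30.7 at day 14 and 22.6, 24.7 and 24.5 at day 63. SiO2 day 14 replicate 1 stood at 44.9 CPM, the highest value of all libraries, beside 27.2 and 27.7 CPM in its group. Plod3 rose 1.40-fold at SiO2 day 7 (0.49 ± 0.17, adjusted p = 0.0217) and 1.44-fold at SiO2 day 63 (0.52 ± 0.17, adjusted p = 0.0212). The call at day 7 was lost with upper quartile scaling (adjusted p = 0.0562), without untreated replicate 1 or 3 (adjusted p = 0.0643 and 0.102) and without SiO2 day 7 replicate 2 or 3 (adjusted p = 0.0526 and 0.0852). That at day 63 was lost with upper quartile scaling (adjusted p = 0.0517), without untreated replicate 1 or 3 (adjusted p = 0.0691 and 0.1) and without SiO2 day 63 replicate 2 or 3 (adjusted p = 0.082 and 0.0656). It passed at SiO2 day 14 without replicate 3 (0.56, adjusted p = 0.0266) and at BLM day 14 without untreated replicate 2 (0.54, adjusted p = 0.0393). With all libraries these were 0.42 ± 0.17, adjusted p = 0.0758, and 0.41 ± 0.18, adjusted p = 0.0629. The fall from BLM day 14 to day 63 (-0.45 ± 0.17, adjusted p = 0.0435) was lost in 10 of 13 alternative fits, with adjusted p up to 0.159. Leaving out any 1 of the 6 BLM libraries of these days ended it.

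Within the lysyl hydroxylase tags Plod2 made up 66.1 ± 0.476% (SD, n = 3) at BLM day 14 and 58.9 ± 1.42% at SiO2 day 7, against 56.0 ± 1.41% in untreated mice. The share of Plod3 was 37.1 ± 4.13% at SiO2 day 63 and 24.2 ± 1.06% at BLM day 14, against 33.3 ± 2.56% in untreated mice. Summed, the lysyl hydroxylases reached 135 ± 8.86 CPM at BLM day 14 and 119 ± 8.65 CPM at SiO2 day 7, against 72.4 ± 8.94 CPM in untreated mice.

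Serpinh1 rose at all times in silica lungs and at day 7 and 14 in bleomycin lungs. Untreated libraries held 166, 174 and 157 CPM of Serpinh1. Silica libraries held 411, 364 and 312 CPM at day 7, 345, 319.5 and 226 at day 14 and 228, 288 and 246 at day 63. Bleomycin libraries held 268, 329 and 280.5 CPM at day 7, 263, 278 and 259 at day 14 and 155, 199 and 207 at day 63. Libraries of all groups but BLM day 63 lay above the highest untreated value, 174 CPM. The gene rose 2.18-fold at SiO2 day 7 (1.13 ± 0.14, adjusted p = 5.44e-08). It was still 1.53-fold higher at SiO2 day 63 (0.61 ± 0.14, adjusted p = 0.000799). In bleomycin lungs it rose at day 7 (0.82 ± 0.14, adjusted p = 2.2e-05) and day 14 (0.68 ± 0.14, adjusted p = 0.00016). It fell from day 14 to day 63 (-0.51 ± 0.14, adjusted p = 0.00388) and then did not pass against untreated mice (0.17 ± 0.14, adjusted p = 0.487). Unlike P4ha3, P4hb and Plod2 it did not pass between BLM day 7 and day 14 (-0.13 ± 0.13, 95% interval -0.41 to 0.14). The difference of SiO2 day 14 from day 7 (-0.29 ± 0.13, adjusted p = 0.12) passed only without SiO2 day 14 replicate 1 (adjusted p = 0.0435).

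Set directly against each other, P4ha3 and P4hb were higher in silica than in bleomycin lungs at day 7, lower at day 14 and higher again at day 63. At day 7 the SiO2 libraries were higher for 4 of the 8 genes, the alpha subunits and P4hb (5.29% of all genes were higher). The differences were 1.28 ± 0.17, adjusted p = 3.82e-06 for P4ha3 and 0.58 ± 0.10, adjusted p = 0.000112 for P4hb. They were 1.02 ± 0.28, adjusted p = 0.014 for P4ha2 and 0.38 ± 0.12, adjusted p = 0.043 for P4ha1. The P4ha2 call was lost without BLM day 7 replicate 2 (adjusted p = 0.11) and without SiO2 day 7 replicate 3 (adjusted p = 0.0563). That of P4ha1 was lost with upper quartile scaling (adjusted p = 0.065), without BLM day 7 replicate 2 or 3 (adjusted p = 0.0945 and 0.222) and without SiO2 day 7 replicate 1, 2 or 3 (adjusted p = 0.12, 0.104 and 0.085). The lysyl hydroxylases did not pass at day 7, with 95% intervals of -0.09 to 0.67 for Plod1, -0.07 to 0.59 for Plod2 and -0.17 to 0.51 for Plod3. Serpinh1 did not pass either (0.31 ± 0.13, adjusted p = 0.151).

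At day 14 P4ha3 (-0.75 ± 0.17, adjusted p = 0.00226), P4hb (-0.44 ± 0.10, adjusted p = 0.00174) and Plod2 (-0.62 ± 0.16, adjusted p = 0.00611) were lower in SiO2 than in BLM lungs (8.03% of all genes were lower). The Plod2 call was lost without SiO2 day 14 replicate 3 (adjusted p = 0.0611). P4ha1 pointed the other way at 0.35 ± 0.12, adjusted p = 0.0501, and passed with no filter on low counts (adjusted p = 0.0277), with limma-voom (adjusted p = 0.0334) and without BLM day 14 replicate 2 (adjusted p = 0.00366). At day 63 the SiO2 libraries were higher for 5 of the 8 (9.13% of all genes). These were P4ha3 (1.49 ± 0.19, adjusted p = 5.19e-07), P4hb (0.48 ± 0.10, adjusted p = 0.000732), P4ha2 (1.23 ± 0.36, adjusted p = 0.0178), Plod3 (0.56 ± 0.17, adjusted p = 0.0194) and Serpinh1 (0.44 ± 0.14, adjusted p = 0.0223). P4ha3 and P4hb kept their calls in every alternative fit. The P4ha2 call was lost without BLM day 63 replicate 3 (adjusted p = 0.123) and without SiO2 day 63 replicate 1 (adjusted p = 0.0646). The Plod3 call was lost without BLM day 63 replicate 1 or 3 (adjusted p = 0.0762 and 0.0528) and without SiO2 day 63 replicate 2 or 3 (adjusted p = 0.085 and 0.0675), and the Serpinh1 call without BLM day 63 replicate 1 (adjusted p = 0.164) and without SiO2 day 63 replicate 2 (adjusted p = 0.148). Plod1 was the only gene below 0 at day 63 (-0.34 ± 0.19, 95% interval -0.73 to 0.06) and did not pass.

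The difference in timing was tested as an interaction, the log2 change in silica lungs minus the log2 change in bleomycin lungs over the same days. From day 7 to day 14 it was lower for 4 of the 8 genes (9.47% of all genes): P4ha3 (-2.03 ± 0.25, adjusted p = 3.74e-07), P4ha2 (-1.39 ± 0.41, adjusted p = 0.0151), P4hb (-1.01 ± 0.14, adjusted p = 2.99e-06) and Plod2 (-0.88 ± 0.23, adjusted p = 0.00557). From day 14 to day 63 the same 4 were higher (9.70% of all genes), with 2.24 ± 0.26, adjusted p = 1.17e-07 for P4ha3, 1.60 ± 0.47, adjusted p = 0.0152 for P4ha2, 0.92 ± 0.14, adjusted p = 1.2e-05 for P4hb and 0.77 ± 0.23, adjusted p = 0.0169 for Plod2. The day 14 libraries enter both interactions with opposite sign, so these results are not independent. P4ha3 and P4hb passed both in every alternative fit. The early P4ha2 call was lost without BLM day 7 replicate 2 (adjusted p = 0.0529), without BLM day 14 replicate 2 (adjusted p = 0.0561) and without SiO2 day 14 replicate 3 (adjusted p = 0.0503), and its late call without BLM day 63 replicate 3 (adjusted p = 0.0637). The late Plod2 call was lost without SiO2 day 14 replicate 3 (adjusted p = 0.0634) and without SiO2 day 63 replicate 3 (adjusted p = 0.0926). P4ha1, Plod1, Plod3 and Serpinh1 passed neither. Plod3 passed the late one (0.55 ± 0.24, adjusted p = 0.11 with all libraries) without SiO2 day 14 replicate 1 (adjusted p = 0.00867).

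**Figure D4:**
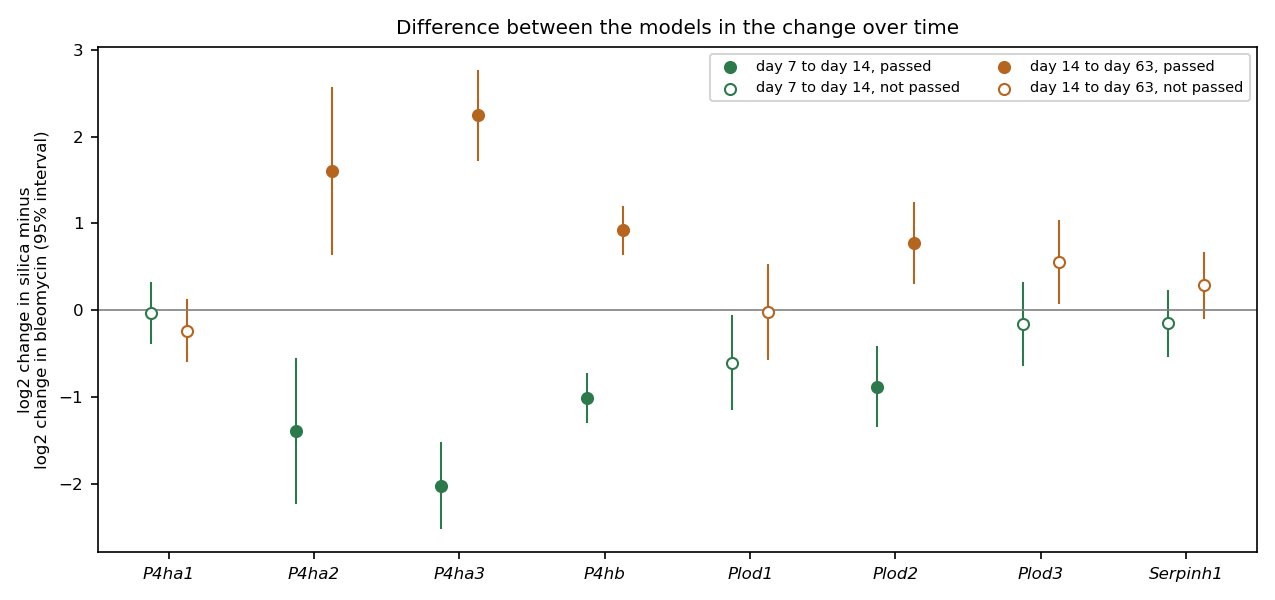
Difference between the models in the change over time (y axis, log2 change in silica minus log2 change in bleomycin, with 95% intervals) for each gene from day 7 to day 14 (green) and from day 14 to day 63 (brown); filled symbols passed an adjusted p under 0.05. P4ha3 lies at -2.03 and 2.24, and P4ha1 at -0.03 and -0.24 with intervals that include 0.

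Within each model, 6 of the 8 genes fell from BLM day 14 to day 63, all but P4ha1 and Plod1 (16.9% of all genes fell). From SiO2 day 14 to day 63 the edgeR test passed 0 of the 8, 0 had an unadjusted p under 0.05, and limma-voom and DESeq2 also passed 0; 3.52% of all genes passed in either direction. The 95% intervals of that comparison reached from -0.76 to 0.50 for P4ha2, the gene with the fewest counts, and from -0.06 to 0.35 for P4hb. From day 7 to day 14, 4 genes fell in silica lungs, the alpha subunits and P4hb (11.1% of all genes), and 3 rose in bleomycin lungs, P4ha3, P4hb and Plod2 (5.20% of all genes).

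The collagen chains these enzymes act on rose in the same groups. Col1a1 stood at 4378 ± 335 CPM (SD, n = 3) at SiO2 day 7 and 3562 ± 345 CPM at BLM day 14, against 689 ± 27.4 CPM in untreated mice. Its log2 fold changes were 2.67 ± 0.14 at SiO2 day 7 and 2.37 ± 0.14 at BLM day 14. In the same order P4hb had 1.37 ± 0.10 and 1.20 ± 0.10 and Serpinh1 1.13 ± 0.14 and 0.68 ± 0.14. P4ha3 was the one gene of the 8 with larger values than Col1a1 in these groups (3.79 ± 0.22 and 3.41 ± 0.22), and differences between genes were not tested. Col12a1, a fibril-associated collagen, had still larger ones (4.39 ± 0.24 and 3.87 ± 0.25). Col6a1 did not pass at SiO2 day 7 (0.11 ± 0.11, adjusted p = 0.423) and Col6a2 fell (-0.62 ± 0.11, adjusted p = 2.19e-05); both form microfibrils of collagen VI. At BLM day 14 Col6a1 rose (0.40 ± 0.11, adjusted p = 0.00345) and Col6a2 fell (-0.46 ± 0.11, adjusted p = 0.000962). Col6a3, also of collagen VI, rose at SiO2 day 7 (0.89 ± 0.11, adjusted p = 1.11e-07) and BLM day 14 (0.91 ± 0.11, adjusted p = 9.47e-08).

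Counted over 13 collagen chains, 11 rose and 1 fell at SiO2 day 7 (median 2.01), and 12 rose and 1 fell at BLM day 14 (median 2.01). Of all genes, 23.4% and 20.7% rose and 20.6% and 18.5% fell in these comparisons. At SiO2 day 63 still 11 rose and 1 fell (median 1.08), where 15.3% of all genes rose and 12.5% fell. Col1a1 was at 0.83 ± 0.13 there. At BLM day 63 there were 3 that rose, Col12a1, Col5a2 and Col3a1 (6.02% of all genes, median 0.04). Col3a1 was lost without untreated replicate 1 (adjusted p = 0.129) and without BLM day 63 replicate 2 (adjusted p = 0.213). Col1a1 (-0.28 ± 0.13, adjusted p = 0.181) and Col1a2 (0.04 ± 0.10, adjusted p = 0.852) did not pass. In that group P4ha3 and P4hb were higher than in untreated mice, as given above. Summed Col1a1 and Col1a2 stood at 2188 ± 187 CPM at BLM day 63 and 4553 ± 76.8 CPM at SiO2 day 63, against 2264 ± 113 CPM in untreated mice.

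Other genes of collagen processing in the same compartment were counted from lists chosen with earlier results of these data known. Of all tested genes, 23.4% rose at SiO2 day 7 and 20.7% at BLM day 14. Of 5 tested genes listed under collagen prolyl 3-hydroxylation, 3 rose at SiO2 day 7 and the same 3 at BLM day 14. These were the 3-hydroxylase P3h1 (1.05 ± 0.21 and 0.87 ± 0.22), its partner Crtap (0.75 ± 0.14 and 0.79 ± 0.14) and the prolyl isomerase Ppib (0.76 ± 0.12 and 0.44 ± 0.12). At day 63 P3h4, a P3h3 partner, fell in both models (-0.64 ± 0.12 in SiO2 lungs and -0.53 ± 0.12 in BLM lungs). P3h1 was then higher in SiO2 lungs, close to the threshold (0.60 ± 0.22, adjusted p = 0.0403). In BLM lungs P3h1 did not pass (-0.15 ± 0.24, adjusted p = 0.768). Of 5 ER prolyl isomerases, 3 rose at SiO2 day 7 and 2 at BLM day 14, against the same shares of all genes. Fkbp11 had the larger fold changes (2.00 ± 0.34, adjusted p = 1.63e-05, and 1.70 ± 0.36, adjusted p = 0.000291). Fkbp10, which encodes FKBP65, a regulator of Plod2 activity, had the smaller adjusted p (1.53 ± 0.14, adjusted p = 1.77e-10, and 1.47 ± 0.14, adjusted p = 8.31e-10). Fkbp10 stood at 92.8 ± 8.21 CPM (SD, n = 3) at SiO2 day 7 and 88.6 ± 8.05 CPM at BLM day 14, against 32.2 ± 1.55 CPM in untreated mice.

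The collagen galactosyltransferases, which add sugar to hydroxylysine, split. Colgalt1 rose at SiO2 day 7 (0.95 ± 0.14, adjusted p = 8.51e-07) and BLM day 14 (0.76 ± 0.14, adjusted p = 4.5e-05), and stood at 52.5 ± 4.70 CPM (SD, n = 3) and 46.0 ± 2.36 CPM there, against 27.2 ± 0.677 CPM in untreated mice. Colgalt2 had 0, 3 and 0 counts in the SiO2 day 7 libraries and 0, 1 and 3 in those of BLM day 14, against 24, 32 and 8 in untreated mice. Per total count that is a ratio of 0.0387 at SiO2 day 7 (exact 95% counting interval 0.00778 to 0.118), and the gene fell in both comparisons (adjusted p = 1.96e-05 and 0.000104). The interval covers counting error only, since tags carry no molecular identifiers.

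Bmp1, the procollagen C-proteinase, rose at SiO2 day 7 (2.45 ± 0.20, adjusted p = 1.42e-11) and BLM day 14 (1.67 ± 0.20, adjusted p = 9.61e-08). Pcolce2, an enhancer of that protease, fell (-3.29 ± 0.17, adjusted p = 1.11e-15 and -3.12 ± 0.17, adjusted p = 3.05e-15). Pcolce2 stood at 47.1 ± 7.88 CPM (SD, n = 3) at SiO2 day 7 and 52.7 ± 9.87 CPM at BLM day 14, against 459 ± 25.9 CPM in untreated mice. Of 7 tested genes of propeptide removal 5 rose and 2 fell at SiO2 day 7, and 3 rose and 2 fell at BLM day 14. Of all genes, 23.4% and 20.7% rose and 20.6% and 18.5% fell at these times. Of 11 genes listed under general ER folding, 9 rose at SiO2 day 7 and 7 at BLM day 14 (medians 0.58 and 0.53). The chaperones Canx (0.63 ± 0.09 and 0.65 ± 0.09) and Hspa5 (0.71 ± 0.12 and 0.73 ± 0.12) were among them. At SiO2 day 63 still 8 of the 11 rose (15.3% of all genes, median 0.49). At BLM day 63 there were 2 that rose, Canx and Hspa5 (6.02% of all genes), and 1 that fell, Creb3l1 (5.48%). The median was 0.22. Creb3l1 and Tmem38b, both in this list, are not folding factors themselves. The Hspa5 call at BLM day 63 was lost without BLM day 63 replicate 3 (adjusted p = 0.055). Of 11 genes of ER export and retrieval 7 rose and 1 fell in both early comparisons, with the coat component Sec13 (1.41 ± 0.19 and 1.49 ± 0.19) and the retrieval receptor Kdelr2 (0.97 ± 0.15 and 0.69 ± 0.16) among those that rose.

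**Figure D5:**
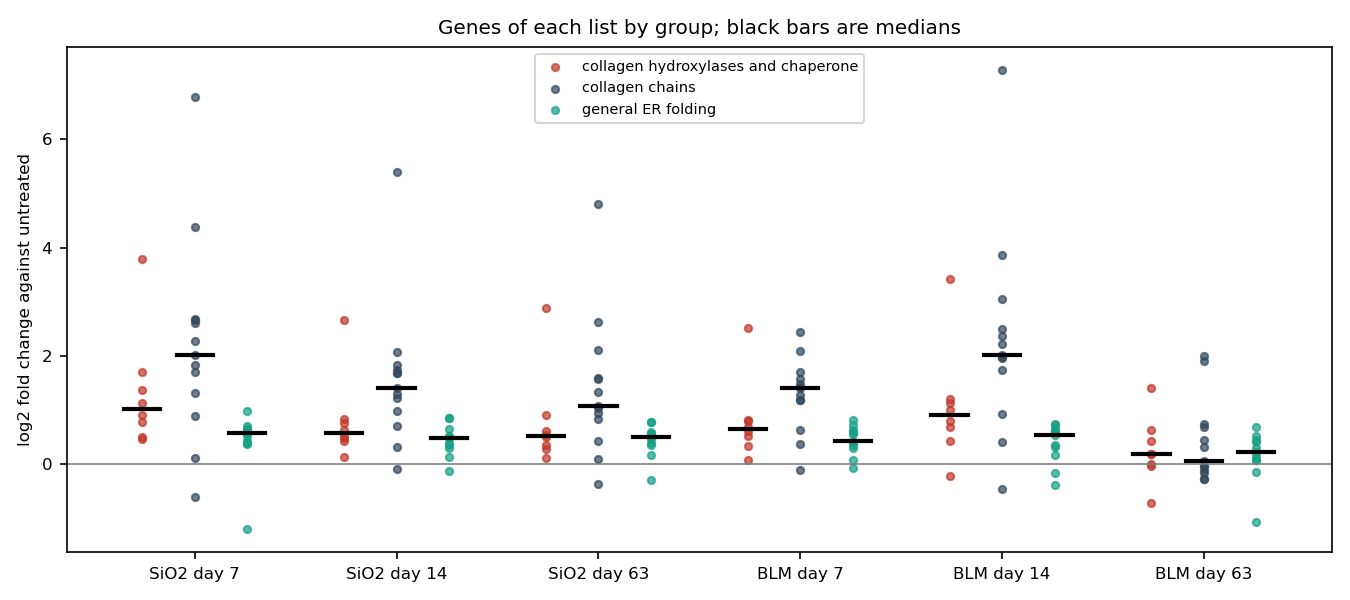
Log2 fold change against untreated mice (y axis) of each gene of 3 lists in the 6 treated groups (x axis). Each point is a gene, red the 8 collagen hydroxylases and chaperone, dark blue 13 collagen chains and green 11 genes listed under general ER folding. Black bars are list medians. Col11a1 was near 0 in untreated mice, so the size of its fold change depends on the fit. At SiO2 day 7 the medians are 1.01, 2.01 and 0.58; at BLM day 63 they are 0.18, 0.04 and 0.22.

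Hydroxylases of the same cofactor class that act on proteins other than collagen were counted too. Of 6 tested, 0 rose and 2 fell at SiO2 day 7, and 0 rose and 2 fell at BLM day 14, where 20.6% and 18.5% of all genes fell (medians -0.31 and -0.49). Egln1, which encodes the oxygen-sensing prolyl hydroxylase PHD2, was among them both times (-0.36 ± 0.12, adjusted p = 0.0197, and -0.32 ± 0.12, adjusted p = 0.0403). The first call was lost without untreated replicate 2 or 3 (adjusted p = 0.0511 and 0.0726). The other was lost with no filter on low counts (adjusted p = 0.102), without untreated replicate 2 or 3 (adjusted p = 0.0883 and 0.125) and without BLM day 14 replicate 1, 2 or 3 (adjusted p = 0.0672, 0.057 and 0.148). P4htm at SiO2 day 7 was lost without untreated replicate 2 (adjusted p = 0.0988) and without SiO2 day 7 replicate 2 or 3 (adjusted p = 0.0581 and 0.0852), and Jmjd6 at BLM day 14 with no filter on low counts (adjusted p = 0.108), with the compared groups alone in the fit (adjusted p = 0.0593), with DESeq2 (adjusted p = 0.0722), without untreated replicate 2 or 3 (adjusted p = 0.243 and 0.0588) and without BLM day 14 replicate 1 or 2 (adjusted p = 0.2 and 0.106). Of 9 tested hypoxia-inducible genes 5 rose and 1 fell at SiO2 day 7, and 5 rose and 2 fell at BLM day 14. Of all genes, 23.4% and 20.7% rose there. The glucose transporter Slc2a1 (1.45 ± 0.10 and 0.85 ± 0.10) and lactate dehydrogenase Ldha (1.63 ± 0.15 and 1.47 ± 0.15) rose. The angiogenic factor Vegfa fell at both times (-1.26 ± 0.25, adjusted p = 0.000131, and -2.07 ± 0.28, adjusted p = 4.96e-07); its SiO2 day 7 value was chosen after it was seen. Of 4 ascorbate genes the transporter Slc23a2 alone was tested, and did not pass at either time. Slc23a1 had too few counts, and Gulo and Rgn were not analysed here. At BLM day 63 it rose (0.58 ± 0.18, adjusted p = 0.034), a call that was lost with DESeq2 (adjusted p = 0.0561), without untreated replicate 1, 2 or 3 (adjusted p = 0.158, 0.0731 and 0.0573) and without BLM day 63 replicate 2 or 3 (adjusted p = 0.207 and 0.0649).

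Over the 21 libraries, the levels of P4ha3 and P4hb on the log2(CPM + 1) scale had a Pearson r of 0.96, the highest of the 28 pairs among the 8 genes. With Col1a1, r was between 0.59 (Plod1) and 0.87 (P4hb and P4ha3) for all of them but P4ha1, which had 0.19. Among 6343 genes with a mean of at least 10 CPM, those most like P4ha3 were Enc1, Slc30a7 and Kif26b (r of 0.965 to 0.969), and those most like P4hb were Chsy1, Pdia5 and Slc30a7 (0.966 to 0.969). Plod2 was most like Actn4, Fn1 and Map4k4 (0.889 to 0.903), and Serpinh1 most like Sh3pxd2b, Nrep and Igf1 (0.917 to 0.918). P4ha2 was most like Sox12, Abracl and Zdhhc12 (0.906 to 0.917), Plod1 most like Tnfaip8, Rpl3 and Cnot6 (0.802 to 0.842), and Plod3 most like Ccbe1, Cttnbp2nl and Dclk1 (0.806 to 0.813). The libraries form 7 groups, so these values largely describe the group means, and are given without a test.

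The sorted cells carried fibroblast transcripts in every library: the summed level of Col1a1, Col1a2, Col3a1, Pdgfra, Dcn and Lum ran from 16483 to 30301 CPM. Members moved in opposite directions at SiO2 day 7 and BLM day 14, where Col1a1, Col1a2 and Col3a1 rose. Pdgfra (-0.61 ± 0.11 and -0.40 ± 0.11) and Dcn (-0.645 ± 0.16 and -0.95 ± 0.16) fell. Lum did not pass at SiO2 day 7 and rose at BLM day 14 (1.38 ± 0.21). Markers of cell types that the sort removes were low but moved with the groups. Summed CPM are given as the range over the 3 libraries of a group. The 7 endothelial markers summed to 8.10 to 13.0, 17.2 to 29.9 and 18.5 to 21.6 CPM at SiO2 day 7, 14 and 63 and 23.2 to 25.2, 16.4 to 23.8 and 12.9 to 19.9 CPM at BLM day 7, 14 and 63, against 22.4 to 30.9 CPM in untreated mice. Members of this list moved in opposite directions. Plvap, at most 14.1 CPM, rose against untreated mice in every group but BLM day 63 (1.70 ± 0.49 at SiO2 day 7, 3.68 ± 0.40 at BLM day 14). Tek fell at SiO2 day 7 and 63 and at BLM day 7 and 14 (-1.95 ± 0.325 at SiO2 day 7, -2.17 ± 0.345 at BLM day 14). Kdr fell at SiO2 day 7 alone. Cdh5 and Cldn5 were each at 0 in 20 of 21 libraries. The 7 myeloid markers summed to 9.11 to 13.5, 18.0 to 32.4 and 19.2 to 23.7 CPM at SiO2 day 7, 14 and 63 and 14.5 to 23.1, 9.67 to 14.6 and 2.67 to 5.72 CPM at BLM day 7, 14 and 63, against 3.11 to 6.53 CPM in untreated mice. Tyrobp, the only one of these tested, had a median of 11.9 CPM, and the next, Lyz2, had 0.896 CPM. Ptprc was at 0 in 11 libraries. The 4 lymphocyte markers, mostly Ccl5, summed to 29.6 to 72.1, 23.1 to 33.8 and 31.4 to 43.9 CPM at SiO2 day 7, 14 and 63 and 29.5 to 53.4, 8.29 to 15.5 and 2.89 to 5.74 CPM at BLM day 7, 14 and 63, against 3.28 to 5.02 CPM in untreated mice. Cd3e was at 0 in 20 libraries. The 7 epithelial markers summed to 19.2 to 27.3, 6.40 to 10.2 and 2.67 to 4.73 CPM at SiO2 day 7, 14 and 63 and 25.7 to 30.2, 6.63 to 7.47 and 6.22 to 9.76 CPM at BLM day 7, 14 and 63, against 6.53 to 10.8 CPM in untreated mice. Epcam was at 0 in 12 libraries.

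Marker genes of other collagen-making mesenchymal cells had more tags. Which cells these tags came from was not tested. The 7 pericyte and smooth muscle markers summed to 139.7 to 160.2, 93.3 to 126 and 107 to 134 CPM at SiO2 day 7, 14 and 63 and 94.9 to 145, 127 to 171 and 81.4 to 107 CPM at BLM day 7, 14 and 63, against 48.2 to 52.4 CPM in untreated mice. Mcam, which encodes the depleted CD146, was at 0 in 12 libraries. The 6 mesothelial markers summed to 126 to 179, 395 to 515 and 222 to 254 CPM at SiO2 day 7, 14 and 63 and 269 to 375, 385 to 439.9 and 354 to 431 CPM at BLM day 7, 14 and 63, against 515 to 640.0 CPM in untreated mice. Upk1b had the highest median level of these, 297 CPM, against 48.5 CPM for Krt19 and 19.1 CPM for Msln. At BLM day 7 and SiO2 day 14 Msln rose (0.77 ± 0.24 and 0.915 ± 0.23) while Upk1b fell (-1.29 ± 0.12 and -0.63 ± 0.12). The other tested mesothelial markers did not pass in either comparison. Wt1 was at 0 in 3 libraries. Erythroid markers, 4 of 5 in the files, stayed at or below 1.86 CPM in every library. Ribosomal RNA entries took 0.290% to 0.493% of counts in the 18 treated libraries, against 0.174% to 0.219% in untreated ones. The part of these differences in the changes of the 8 genes was not tested.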

How the data were processed

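The 21 libraries are 3′ SAGE libraries read on an Ion Proton, made from polyA RNA of 10000 sorted cells each and amplified. The authors deposited 1 table of whole-number tag counts per gene symbol for each library; reads were aligned with Bowtie2 2.2.5 to mm10, per the submitters' processing notes. The counting program, its annotation and its strand setting are not given in the sources used here, and tags carry no molecular identifiers.

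Groups were taken from the sample titles. Counts were fitted with edgeR 4.0.16 in R 4.3.3: 7 groups in 1 model, genes kept by filterByExpr (11669 of 23204 symbols, holding 99.68% of counts), TMM scaling, and quasi-likelihood tests of 15 contrasts adjusted by the Benjamini-Hochberg method over all tested genes at 0.05. SEs and 95% intervals follow from the test statistic. The coefficient of variation from edgeR's common dispersion was 12%, with 14 residual degrees of freedom. It describes the spread between libraries of a group, which may be technical. Exact counting intervals at 95% were given for 1 gene with near-zero counts. The fit was run on simulated counts in which a small set of genes was changed at SiO2 day 7 only. Scaling and calling under the wider changes of these data were not tested by it.

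The 8 genes and the other gene lists were chosen with earlier results of these data known. All 8 genes were reported in every comparison. Of each other list, up to 4 called genes with the smallest adjusted p in a comparison could be named, and any collagen chain. Col6a1, Col6a2 and Col6a3 fall under the last. Likeness was Pearson's r of log2(CPM + 1) over 21 libraries. The genes most like P4ha1 are not reported here. Alternatives were upper quartile scaling, DESeq2 size factors, no filter on low counts, a replicate block, a fit of the compared groups alone, limma-voom (limma 3.58.1), DESeq2 1.42.0 and leaving out each library in turn. Leaving out a library makes its group smaller, so a call near the threshold can be lost without that library standing apart. The labels give no batch. Libraries of the same group all differed by more than sampling noise, and pairs across groups were not compared for this. Promoter windows are RefSeq's for GRCm38.p6 and gene positions GENCODE vM21's for mm10. Figures were drawn with matplotlib 3.10.9 in Python 3.11.15.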

Additional observations from a re-analysis of the deposited data

Results flagged for a closer look

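For 4 of the 8 genes the change over time differed between the models, by the interaction test in edgeR. From day 7 to day 14 the log2 change in silica lungs minus that in bleomycin lungs was -2.03 for P4ha3, -1.39 for P4ha2, -1.015 for P4hb and -0.88 for Plod2. From day 14 to day 63 it was 2.24 for P4ha3, 1.60 for P4ha2, 0.92 for P4hb and 0.77 for Plod2. The adjusted p of each, and the libraries without which the P4ha2 and Plod2 calls were lost, are given with the interaction tests above. Single libraries that stand apart were not looked for by a rule, since every group has 3.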

How the results depend on the processing

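Of the 120 gene and comparison pairs of the 8 genes, 63 were called; 43 of these calls held in every alternative run and 20 were lost in at least 1, those named above, and 0 changed direction. Over all 1655 alternative values 1559 kept their side of the threshold, 86 fell below it and 10 passed it. With no filter on low counts, and with limma-voom, 1 gene (P4ha1) was higher in SiO2 than in BLM lungs at day 14, against 0. Leaving out each library in turn gave these ranges for the number of genes in a part of the comparisons: 3 to 4 higher at BLM day 7 than in untreated mice (5 with all libraries), 0 to 1 lower at BLM day 14 than in untreated mice, 2 to 4 higher at SiO2 than BLM day 7, 0 to 1 higher at SiO2 than BLM day 14, 3 to 5 higher at SiO2 than BLM day 63, 1 to 3 higher and 0 to 1 lower at BLM day 14 than day 7, and 0 to 1 higher at BLM day 63 than day 14. Counts in comparisons not listed also changed where a call named above was lost, as for Plod1 at BLM day 63 against untreated mice. Groups share replicate numbers, but the numbers did not pair the libraries: deviations of the 63 same-number pairs correlated at -0.12 to 0.062, and 5 of 21 libraries were closest to their own number. With the replicate block, 3 calls were lost: Plod1 at BLM day 63 against untreated mice (adjusted p = 0.056), Plod3 at BLM day 63 against day 14 (adjusted p = 0.0537) and P4ha1 at SiO2 day 14 against day 7 (adjusted p = 0.0549). The number of genes higher than in untreated mice was then 8, 4 and 4 at SiO2 day 7, 14 and 63, and 5, 6 and 2 at BLM day 7, 14 and 63. P4ha2, with 5 to 40 counts per library, is the gene that depth limits most.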
